A study of Homo sapiens with 6 samples.

Results

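The interleukin-1 (IL-1) family was examined in U87 cells, an established human glioblastoma line, as 10 genes: the ligands IL1A, IL1B, IL18 and IL33, the receptor antagonist IL1RN, the receptors IL1R1, IL1R2, IL1RAP and IL1RL1, and CASP1, the caspase that processes some of the ligands. They were chosen by gene name, with earlier results of these data known, and all 10 were found among the 60671 genes of the expression table. The rutaecarpine group (3 libraries) was exposed for 48 h to 100 μM rutaecarpine, an alkaloid of Evodia rutaecarpa that the study examined as an activator of the aryl hydrocarbon receptor (AhR). The control group (3 libraries) received the solvent for the same time, so both groups contained 0.1% DMSO, and dosing was done in medium without serum. A single line, dose and time were studied, and the labels do not say whether the libraries of a group came from separate cultures, so p-values measure the spread between these libraries, which may be technical.

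IL-1α (IL1A) and IL-1β (IL1B) bind the same receptor, IL1R1, which then recruits the accessory chain IL1RAP and signals through MYD88 and the IRAK kinases to NF-kappaB and the MAP kinases. IL1RN occupies IL1R1 without signalling, and IL1R2 is a decoy that binds ligand but lacks the signalling domain. IL-1β and IL-18 are made as inactive precursors that caspase-1 cleaves, whereas the IL-1α precursor is already active and IL-33 acts through IL1RL1. In glioblastoma, both tumor cells and the macrophages and microglia around them are known sources of IL-1.

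Expression is given as TPM, a transcript's share of the library scaled to a fixed total, which the authors estimated with RSEM. TPM divide the reads of each gene by its length, so levels of different genes can be compared, but they keep no read numbers. The depth behind a value is therefore unknown and counting error cannot be stated. Changes are log2 fold changes on the log2(TPM + 1) scale, rutaecarpine minus control, tested with limma on the 14377 genes that reached 1 TPM in 3 or more libraries. A gene was called risen or fallen when its Benjamini-Hochberg adjusted p was at most 0.05 and its log2 fold change was above 1 or below -1. This scale understates the change of weakly expressed genes. Among all tested genes 289 rose, which was 2.01%, and 216 fell, which was 1.50%. The median log2 fold change over all tested genes was 0.08.

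The libraries were checked before the members were compared. Control replicate 3 stood apart: its median log2(TPM + 1) over the tested genes was 3.56, against 3.81 to 4.00 in the other libraries. Its correlation across genes was 0.965 with each of the other control libraries, which correlated at 0.986 with each other. Those other control libraries correlated with the rutaecarpine libraries at 0.962 to 0.968. Control replicate 3 was thus about as far from its own group as they were from the rutaecarpine group. Of 12 myeloid cell markers, 10 were under 1 TPM in every library, AIF1, TYROBP and C1QA were listed at 0 throughout, and PTPRC reached at most 0.03 TPM. Their summed level was 8.50 to 11.0 TPM in the control group and 8.14 to 9.35 TPM in the rutaecarpine group, and most of it was CSF1R. Of 9 glial and glioblastoma-line markers 6 were expressed and 0 were called, although in limma 4 had an unadjusted p under 0.05 and 3 remained at or below 0.05 after adjustment. The differences of these markers had both signs. OLIG2 was at 1.59 ± 0.129 and 3.63 ± 0.524 TPM (adjusted p = 0.0262 in limma), NES at 19.5 ± 2.01 and 13.2 ± 0.751 TPM (adjusted p = 0.0491) and SLC1A3 at 20.1 ± 5.28 and 9.70 ± 3.21 TPM (adjusted p = 0.0847), control before rutaecarpine. Vimentin (VIM) was at 7498 ± 499 and 4857 ± 381 TPM (SD, n = 3) in the control and rutaecarpine groups, GFAP was at 3.98 ± 0.795 and 4.67 ± 0.940 TPM (adjusted p = 0.00894 and 0.619 in limma), and S100B, SOX2 and AQP4, which mark astrocytes or neural stem cells, were under 1 TPM in every library.

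IL1A, IL1B and IL1RN rose after rutaecarpine, and no member fell. These 3 were among the 6 members that could be tested, and 2.01% of all tested genes rose. The members were chosen with earlier results of these data known, so this count is not independent evidence of a direction. The other tested members, IL1R1, IL1RAP and CASP1, did not pass. IL1R2, IL1RL1, IL18 and IL33 were too weakly expressed to be tested. The median log2 fold change of the 6 tested members was 1.21.

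**Figure D1:**
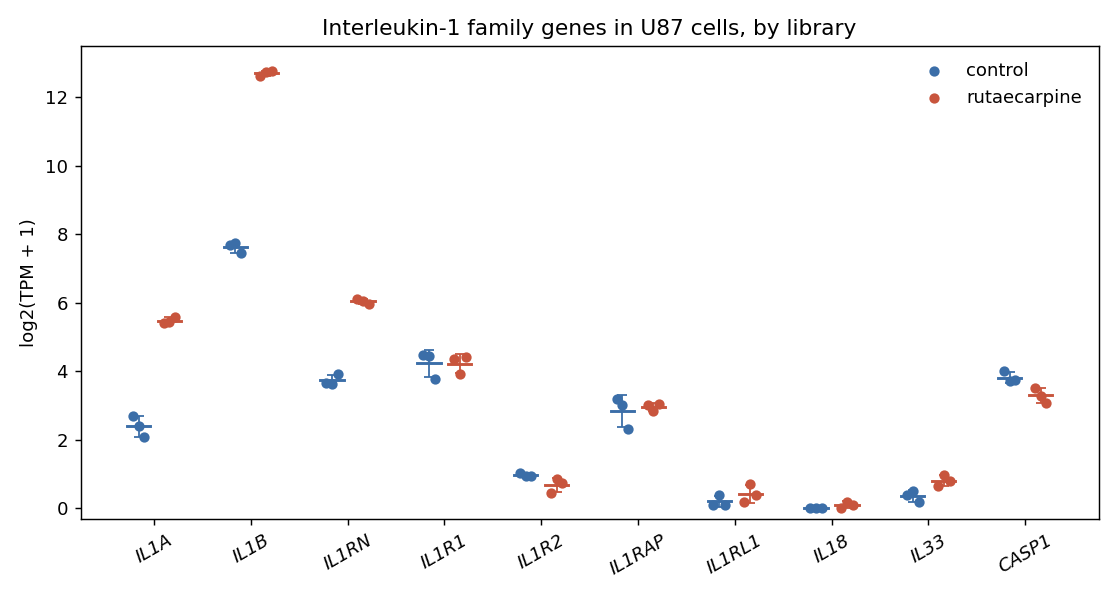
Level of each of the 10 members in each library, as log2(TPM + 1) on the vertical axis, with blue points for the 3 control and red points for the 3 rutaecarpine libraries; horizontal bars are group means and whiskers are SD. For IL1A, IL1B and IL1RN every red point lies above every blue point, and the groups overlap for IL1R1 and IL1RAP.

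The sequences upstream of the 3 genes that rose are shown because these genes moved together and because the study concerned a ligand-activated transcription factor. Each is the 250 bases before the most upstream transcription start that RefSeq lists for the gene among its promoter windows (GRCh38.p14), written 5′ to 3′ on the strand of the gene. The windows lie at chr2:112784494-112784743 on the minus strand for IL1A, chr2:112836780-112837029 on the minus strand for IL1B and chr2:113117721-113117970 on the plus strand for IL1RN. Capitals mark matches to the motifs searched.
IL1A: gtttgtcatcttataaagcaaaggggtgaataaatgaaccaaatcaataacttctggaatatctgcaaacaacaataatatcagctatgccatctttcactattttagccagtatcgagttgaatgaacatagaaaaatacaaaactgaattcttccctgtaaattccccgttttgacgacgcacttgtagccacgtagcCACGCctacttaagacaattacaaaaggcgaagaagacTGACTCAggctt
IL1B: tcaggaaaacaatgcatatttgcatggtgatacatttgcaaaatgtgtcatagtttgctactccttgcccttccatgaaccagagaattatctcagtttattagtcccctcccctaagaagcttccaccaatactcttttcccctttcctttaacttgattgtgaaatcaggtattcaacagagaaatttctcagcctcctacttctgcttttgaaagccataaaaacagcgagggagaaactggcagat
IL1RN: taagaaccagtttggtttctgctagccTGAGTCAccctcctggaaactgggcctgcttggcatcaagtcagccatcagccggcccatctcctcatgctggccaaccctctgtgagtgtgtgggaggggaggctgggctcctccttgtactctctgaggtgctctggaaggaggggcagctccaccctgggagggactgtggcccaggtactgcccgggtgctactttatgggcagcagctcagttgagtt
The search covered both strands for the AhR response element TNGCGTG, for its core GCGTG (which every full element contains), for the AP-1 motif TGANTCA and for the NF-kappaB motif of 10 letters. Positions are counted back from -1, the base before the start. The IL1A window holds the core at -50 to -46 (on the opposite strand, read as CACGC) and an AP-1 motif at -12 to -6. The IL1RN window holds an AP-1 motif at -223 to -217, and the IL1B window holds none of the 4 motifs.

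Promoter windows were found for 8 of the 10 members, and for some of them at several starts. Over all these windows the full AhR element and the NF-kappaB motif were absent, the core was found for IL1A and IL1R1, and the AP-1 motif was found for IL1A, IL1RN and IL1RL1. Over the 35116 windows of all genes, the full element was found in 4.52%, the core in 32.2%, the AP-1 motif in 6.57% and the NF-kappaB motif in 5.21%. Counted per gene over any start, as for the members, the shares of the 27305 genes were higher. They were 5.54% for the full element, 36.2% for the core, 8.06% for AP-1 and 6.28% for NF-kappaB. The window of the other IL1A start, downstream of the first, has a further AP-1 motif at -55 to -49. For IL1RN, IL1R1 and IL1RL1 the match was found at a single start, and the windows of their other starts hold none of the motifs. These matches describe letters in a short window only.

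IL1B was the most abundant member in both groups and the one with the largest change. The gene (ENSG00000125538) lies on the minus strand at chr2:112829751-112836903, a position from GENCODE release 29 on GRCh38, as are the other gene positions. Its TPM were 203.87, 212.62 and 173.02 in the control libraries and 6308.15, 6786.14 and 6914.5 in the rutaecarpine libraries. Every rutaecarpine library was above every control library, as was the case for 19.3% of all tested genes. The mean rose from 197 ± 20.8 to 6670 ± 320 TPM (SD, n = 3), a 33.9-fold ratio, with a log2 fold change of 5.08 (SE 0.10, 95% CI 4.85 to 5.31, adjusted p = 2.76e-06 in limma). Only 2 of the tested genes had a larger log2 fold change. Ranked by TPM among all genes, IL1B went from between 595th and 775th in the control libraries to 12th or 13th in the rutaecarpine libraries, and its share of all TPM was 0.0174% to 0.0215% in the former and 0.635% to 0.697% in the latter. In bulk libraries such as these, more cells with a transcript and more of it per cell cannot be told apart.

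IL1A, the other agonist of IL1R1, rose from a much lower level. The gene (ENSG00000115008) is on the minus strand at chr2:112773915-112784590. Its TPM were 5.47, 4.31 and 3.23 in the control libraries and 41.3, 42.4 and 47.39 in the rutaecarpine libraries, so the groups did not overlap. The rutaecarpine values were the higher ones, a pattern shared with 19.3% of all tested genes. The means were 4.34 ± 1.12 and 43.7 ± 3.25 TPM (SD, n = 3), a 10.1-fold ratio, and the log2 fold change was 3.09 (SE 0.18, 95% CI 2.66 to 3.51, adjusted p = 0.000310 in limma), the 12th largest of the tested genes.

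IL1RN, which encodes the antagonist, rose with a smaller log2 fold change. The gene (ENSG00000136689) is on the plus strand at chr2:113107214-113134016. Its TPM were 11.71, 11.36 and 14.17 in the control libraries and 68.6, 65.31 and 60.99 in the rutaecarpine libraries, again without overlap, the pattern of 19.3% of all tested genes. The mean went from 12.4 ± 1.53 to 65.0 ± 3.82 TPM (SD, n = 3), a 5.23-fold ratio, and the log2 fold change was 2.30 (SE 0.12, 95% CI 2.02 to 2.59, adjusted p = 0.000188 in limma). Values per gene do not separate the secreted and intracellular forms of the antagonist.

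The balance between agonist and antagonist transcripts was compared within each library. TPM of IL1B divided by TPM of IL1RN was 17.4, 18.7 and 12.2 in the control libraries and 92.0, 104 and 113 in the rutaecarpine libraries. The agonist transcript was thus in excess of the antagonist transcript in every library, and more so in all 3 rutaecarpine libraries. These values are of RNA and do not give the balance of the active proteins. As a difference of log2(TPM + 1) values, IL1B minus IL1RN was 3.88 ± 0.32 in the control group and 6.66 ± 0.15 in the rutaecarpine group (SD, n = 3). The groups differed by 2.78 (two-sided exact permutation test, p = 0.100, the smallest p that 3 against 3 libraries allow).

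The agonists were compared with each other in the same way. TPM of IL1B divided by TPM of IL1A was 37.3, 49.3 and 53.6 in the control libraries and 153, 160 and 146 in the rutaecarpine libraries. On the log2(TPM + 1) scale, IL1A minus IL1B was -5.23 ± 0.21 and -7.22 ± 0.07 (SD, n = 3), a difference of -2.00 between the groups (two-sided exact permutation test, p = 0.100, again the smallest possible). IL1B therefore exceeded IL1A in all 6 libraries, by a larger factor after rutaecarpine.

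**Figure D2:**
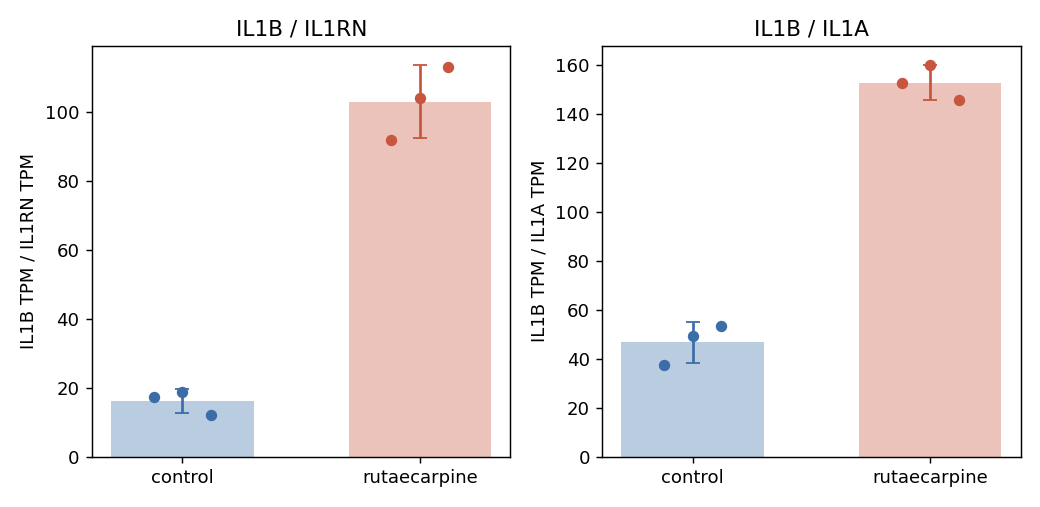
TPM of IL1B divided by TPM of IL1RN (left) and by TPM of IL1A (right) in each library; bars are group means, whiskers SD and points the 3 libraries of each group. Both ratios were higher in every rutaecarpine library (at least 92.0 and 146) than in any control library (at most 18.7 and 53.6).

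The receptor that both agonists use was expressed and did not pass the test. IL1R1 (ENSG00000115594, plus strand, chr2:102064544-102179874) had TPM of 21.26, 20.91 and 12.8 in the control libraries and 19.53, 14.05 and 20.26 in the rutaecarpine libraries. The groups overlapped, at 18.3 ± 4.79 and 17.9 ± 3.39 TPM (SD, n = 3), and the log2 fold change was -0.01 (95% CI -0.56 to 0.54, adjusted p = 0.980 in limma). The lowest value came from control replicate 3, without which the log2 fold change was -0.24.

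The accessory chain IL1RAP was also expressed and did not pass. IL1RAP (ENSG00000196083, plus strand, chr3:190514051-190659750) had TPM of 8.22, 7.16 and 3.97 in the control libraries and 7.15, 6.13 and 7.2 in the rutaecarpine libraries. The groups overlapped, at 6.45 ± 2.21 and 6.83 ± 0.604 TPM (SD, n = 3), with a log2 fold change of 0.12 (95% CI -0.48 to 0.71, adjusted p = 0.804 in limma). Control replicate 3 was again the lowest, and without it the log2 fold change was -0.15.

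The decoy receptor IL1R2 (ENSG00000115590, plus strand, chr2:101991844-102028544) was barely expressed. Its TPM were 1.04, 0.93 and 0.93 in the control libraries and 0.36, 0.8 and 0.66 in the rutaecarpine libraries. All rutaecarpine values lay below all control values, as they did for 14.0% of all tested genes, but the gene did not reach the level for testing. TPM of IL1R1 divided by TPM of IL1R2 ranged from 13.8 to 22.5 in the control group and from 17.6 to 54.3 in the rutaecarpine group, and the difference of 0.29 on the log2(TPM + 1) scale did not pass (two-sided exact permutation test, p = 0.400). The signalling receptor was the more abundant of the pair in every library.

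IL1RL1, the receptor for IL-33 (ENSG00000115602, plus strand, chr2:102311502-102352037), had TPM of 0.08, 0.31 and 0.08 in the control libraries and 0.13, 0.63 and 0.3 in the rutaecarpine libraries. Its annotated span overlaps that of IL18R1 on the same strand, so reads of the pair may have been divided between them. Its ligand IL33 (ENSG00000137033, plus strand, chr9:6215786-6257983) had TPM of 0.31, 0.42 and 0.13 in the control libraries and 0.58, 0.98 and 0.73 in the rutaecarpine libraries. The rutaecarpine values of IL33 were all higher, as was the case for 19.3% of all tested genes, yet all 6 were under 1 TPM.

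IL18 (ENSG00000150782, minus strand, chr11:112143251-112164117), the other ligand matured by caspase-1, was listed at 0 in all 3 control libraries and at 0, 0.15 and 0.08 TPM in the rutaecarpine libraries. At these levels no change could be assessed for IL18, IL33 or IL1RL1. When the filter on low TPM was left out, the adjusted p of the 4 weak members lay between 0.194 for IL33 and 0.631 for IL1RL1 in limma.

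CASP1 encodes caspase-1 (ENSG00000137752, minus strand, chr11:105025443-105035250). Its TPM were 15.17, 12.09 and 12.34 in the control libraries and 10.42, 8.81 and 7.51 in the rutaecarpine libraries. The groups did not overlap, and the rutaecarpine values were the lower ones, a pattern shared with 14.0% of all tested genes. The means were 13.2 ± 1.71 and 8.91 ± 1.46 TPM (SD, n = 3), and the log2 fold change of -0.52 (SE 0.17, 95% CI -0.92 to -0.12) did not pass, with an unadjusted p of 0.0177 and an adjusted p of 0.114 in limma. Near-identical copies of parts of CASP1 lie beside it (CARD16, CARD17 and pseudogenes), and RSEM divides reads that fit several of them.

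Ranked by level, the control libraries gave the order IL1B, IL1R1, CASP1, IL1RN, IL1RAP, IL1A, IL1R2, IL33, IL1RL1 and IL18. IL1R1, CASP1 and IL1RN overlapped with their neighbors, as did IL1RAP with IL1A and IL33 with IL1RL1. In the rutaecarpine libraries the order by mean was IL1B, IL1RN, IL1A, IL1R1, CASP1, IL1RAP, IL33, IL1R2, IL1RL1 and IL18. The first 6 of these did not overlap with their neighbors, while IL33, IL1R2 and IL1RL1 overlapped with one another, as did IL1RL1 with IL18. IL1RN and IL1A thus stood above IL1R1 after rutaecarpine, whereas in the control group IL1A was below it in every library.

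**Figure D3:**
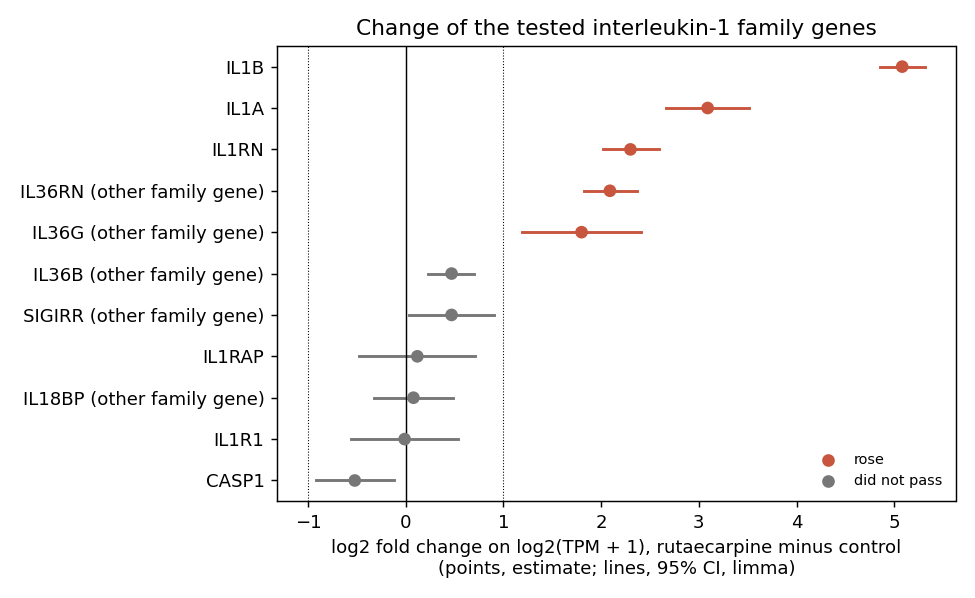
Log2 fold change (horizontal axis, on log2(TPM + 1), rutaecarpine minus control) with its 95% confidence interval in limma for the 6 tested members and the 5 tested other genes of the family; dotted lines mark -1 and 1. IL1B, IL1A, IL1RN, IL36RN and IL36G (red) rose, and the other 6 genes (gray) did not pass.

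Of the 13 other ligands, receptors and binding proteins of the family, 5 were tested, of which 2 rose and 0 fell, against 2.01% and 1.50% of all tested genes, with a median log2 fold change of 0.47. IL36RN, the antagonist of the IL-36 receptor, had TPM of 12.73, 15.53 and 13.49 in the control libraries and 57.8, 66.44 and 63.51 in the rutaecarpine libraries (log2 fold change 2.09, SE 0.12, adjusted p = 0.000268 in limma). IL36G, an agonist of that receptor, had TPM of 1.17, 0.22 and 0.31 against 3.65, 4.84 and 4.35 (log2 fold change 1.80, SE 0.26, adjusted p = 0.00691 in limma). Its rutaecarpine libraries alone carried IL36G past the filter on low TPM, so it could only be tested because it was higher there, and without it 1 of 4 tested genes rose. The receptor itself, IL1RL2, was listed at 0 in 5 libraries and at 0.05 TPM in rutaecarpine replicate 3. The remaining tested genes, IL36B, SIGIRR and IL18BP, did not pass, and 8 of the 13 were under 1 TPM in every library. This list too was drawn up with earlier results of these data known, so its count is not independent evidence.

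The family genes that rose lie in 1 interval. The interval from IL1A to IL1RN on chromosome 2 (chr2:112773915-113134016) spans 360 kb and holds 15 annotated genes, of which 9 are protein-coding. Of the 6 coding genes tested, 5 rose: IL1A, IL1B, IL36G, IL36RN and IL1RN. IL36G could enter this count only through its rutaecarpine libraries, and without it 4 of 5 rose, against 2.01% of all tested genes. All the risen genes were already counted above, as members or as other family genes, and IL1A and IL1RN set the ends of the interval. The count is therefore no separate result. The exception was IL36B, an agonist of the IL-36 receptor, which was at 29.0 ± 1.16 and 40.5 ± 2.62 TPM (SD, n = 3; log2 fold change 0.47, adjusted p = 0.0307 in limma) and so missed the fold threshold. IL37, IL36A and IL1F10 were under 1 TPM in every library, and 0 of the 6 noncoding genes and pseudogenes of the interval were expressed enough to be tested.

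The nearest coding genes outside the interval, chosen after the values had been seen, were not called. Only 2.01% and 1.50% of all tested genes rose and fell, so this is near the background and marks no boundary. CKAP2L, before IL1A, was at 17.8 ± 6.40 and 12.2 ± 0.410 TPM, PSD4, after IL1RN, was at 8.70 ± 0.191 and 6.41 ± 1.24 TPM, and PAX8, beyond PSD4, was at 8.74 ± 1.41 and 8.97 ± 1.29 TPM (SD, n = 3), with adjusted p of 0.357, 0.209 and 0.917 in limma. NT5DC4 was too weakly expressed to be tested.

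**Figure D4:**
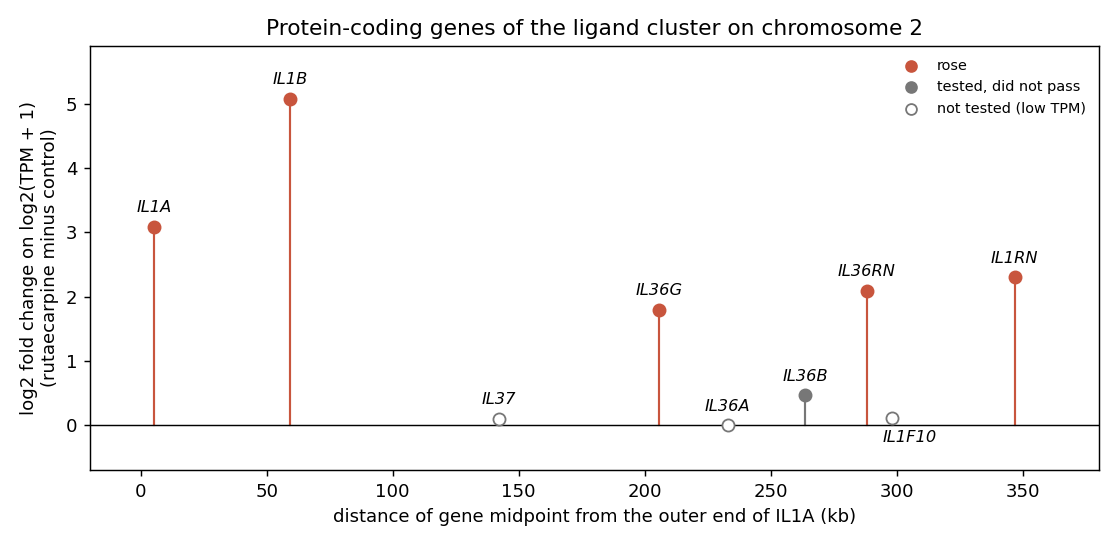
Log2 fold change (vertical axis, on log2(TPM + 1), rutaecarpine minus control) of the 9 protein-coding genes between IL1A and IL1RN against the distance of each gene's midpoint from the outer end of IL1A in kb. Red points rose, the gray point (IL36B, 0.47) was tested and did not pass, and open points were not tested.

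The receptor genes lie together elsewhere on chromosome 2. The interval from IL1R2 to IL18RAP (chr2:101991844-102452565) spans 461 kb and holds 6 protein-coding genes, of which IL1R1 alone was expressed enough to be tested. IL1RL2, IL18R1 and IL18RAP stayed under 1 TPM in every library, like IL1RL1, and the antisense gene IL1R1-AS1 was listed at 0 throughout. The caspase interval on chromosome 11 (chr11:104885718-105531697, 646 kb) has 6 protein-coding genes between CASP12 and CARD18. CASP4, which senses intracellular lipopolysaccharide, was at 32.0 ± 1.96 and 37.4 ± 1.39 TPM and CARD16 was at 3.08 ± 0.764 and 3.87 ± 0.629 TPM (SD, n = 3), and neither passed (adjusted p = 0.227 and 0.477 in limma). CASP1 was the only tested gene of the caspase interval whose mean was lower after rutaecarpine.

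Genes that carry the signal from IL1R1 were read as a list. Of 19 genes of IL-1 receptor signalling (adaptors, IRAK and TAK1 kinases, ubiquitin ligases and the IKK complex), 18 were tested, 1 rose and 0 fell, with a median log2 fold change of 0.28. At the 2.01% and 1.50% of all tested genes that rose and fell, these counts are near the background and say nothing particular of the list. Of the 17 genes not called, 16 had a log2 fold change above 0 and 1 below. For 8 of the 18, every rutaecarpine library was above every control library, against 19.3% of all tested genes. Several genes, such as TAB2 and MAP3K7, had their lowest value in control replicate 3. The cause of these small differences was not tested. The gene that rose was IRAK2, a kinase of the receptor complex, with TPM of 25.19, 27.06 and 21.39 in the control libraries and 53.63, 44.24 and 53.02 in the rutaecarpine libraries. Its log2 fold change was 1.01 (SE 0.13, adjusted p = 0.00505 in limma), just past the fold threshold, and without control replicate 3, rutaecarpine replicate 1 or rutaecarpine replicate 3, or with the libraries centered on their medians, the count for the list was 0. IRAK3, an inhibitor of the receptor complex, was under 1 TPM in every library and was not tested.

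Of 24 genes of inflammasomes and cytokine processing, 19 were tested, and limma called 0, with an unadjusted p under 0.05 for 5 and a median log2 fold change of 0.15. With 2.01% and 1.50% of all tested genes called, a count of 0 in a list of this size is near the background. AIM2, a sensor of cytosolic DNA, was the only gene to pass on adjusted p alone and is named after its values were seen. Its TPM were 10.66, 12.8 and 10.5 in the control libraries and 21.49, 20.7 and 18.23 in the rutaecarpine libraries (log2 fold change 0.78, adjusted p = 0.0156 in limma). PYCARD, the adaptor that joins sensors to caspase-1, was at 9.41 ± 2.19 and 5.83 ± 1.36 TPM and NLRP3 was at 3.29 ± 0.457 and 3.41 ± 0.306 TPM (SD, n = 3), and neither passed (adjusted p = 0.157 and 0.889 in limma). These genes were also named with their values known.

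Genes that IL-1 is known to induce in other cells included risen genes and a fallen one. Of 28 such genes 26 were tested, 11 rose and 1 fell, against 2.01% and 1.50% of all tested genes, and the median log2 fold change was 0.47. The list was drawn up with earlier results of these data known, so its count is not independent evidence of a direction. The largest rise was that of PTGS2, the inducible cyclooxygenase, from 64.65, 60.72 and 30.59 TPM in the control libraries to 785.31, 690.52 and 933.45 TPM in the rutaecarpine libraries (log2 fold change 3.98, SE 0.28, adjusted p = 0.000515 in limma).

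Chemokines and cytokines made up most of the rest. CXCL8, a neutrophil chemokine, rose from 371 ± 69.4 to 1893 ± 214 TPM, CXCL2 from 50.5 ± 6.50 to 431 ± 70.7 TPM, CXCL3 from 27.0 ± 1.49 to 76.8 ± 11.6 TPM and CCL20 from 6.22 ± 1.07 to 56.2 ± 4.46 TPM (SD, n = 3). CSF3, the granulocyte colony-stimulating factor, rose from 575 ± 38.8 to 2536 ± 165 TPM and LIF from 111 ± 32.9 to 889 ± 134 TPM. MMP1, a collagenase, rose from 4.13 ± 0.431 to 15.4 ± 0.896 TPM. The other risen genes, named beyond the 8 largest, were NFKBIZ, ICAM1 and IL6, with log2 fold changes of 1.41, 1.36 and 1.08. The NFKBIZ call was lost without any 1 of the rutaecarpine libraries, with the replicate number as a block and with no filter on low TPM, and that of IL6 when the libraries were centered on their medians.

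Other genes of the list did not follow. VCAM1, an adhesion molecule, fell from 3.33 ± 1.08 to 0.903 ± 0.0751 TPM (SD, n = 3; log2 fold change -1.16, adjusted p = 0.0188 in limma), a call that was lost whichever of the 6 libraries was left out, with the replicate block and with no filter. VCAM1 reached 1 TPM in the control libraries alone, so it could only be tested because it was higher there, and without any 1 of them it was not tested. MMP3, a stromelysin, was at 413 ± 44.0 TPM in the control group and 220 ± 14.5 TPM in the rutaecarpine group (log2 fold change -0.90, adjusted p = 0.00284 in limma) and missed the fold threshold. CSF2 and TNFAIP3 did not pass, with log2 fold changes of -0.09 and 0.34. VCAM1, MMP3, CSF2 and TNFAIP3 were chosen after their values were seen.

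**Figure D5:**
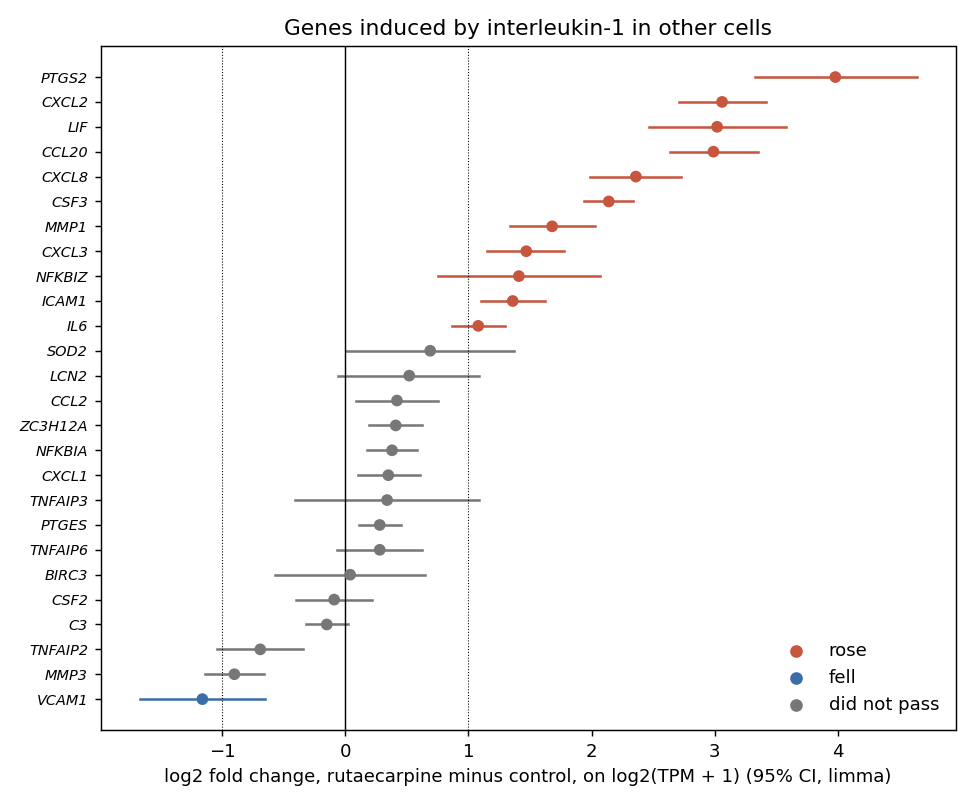
Log2 fold change (horizontal axis, on log2(TPM + 1), rutaecarpine minus control) with its 95% confidence interval in limma for the 26 tested genes that IL-1 is known to induce; dotted lines mark -1 and 1. Of these, 11 rose (red), 1 fell (blue, VCAM1) and 14 did not pass (gray), with TNFAIP2 and MMP3 at -0.69 and -0.90.

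Genes whose profile was most like those of the agonists were found by the Euclidean distance between log2(TPM + 1) values over the 6 libraries, each centered on the gene's own mean. Nearest to IL1B were SERPINB2 (distance 0.46), SLC16A6 (0.52), IL24 (0.72), THBD (1.12) and IGFBP1 (1.39). SERPINB2, an inhibitor of plasminogen activators, had TPM of 8.22, 7.01 and 6.69 in the control libraries and 341.46, 322.62 and 381.08 in the rutaecarpine libraries. THBD, which encodes thrombomodulin, was under 1 TPM in the control group and at 25.3 ± 1.19 TPM (SD, n = 3) in the rutaecarpine group. It reached 1 TPM in the rutaecarpine libraries alone, so it could only be among the genes compared because it was higher there.

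Nearest to IL1A were SLC9A3-AS1 (distance 0.23), TIPARP (0.29), CCL20 (0.33), LIF (0.38) and GREM1 (0.48). TIPARP, a known AhR target, had TPM of 15.12, 11.91 and 8.08 in the control libraries and 110.59, 90.07 and 119.17 in the rutaecarpine libraries. GREM1, a secreted inhibitor of bone morphogenetic proteins, rose from 46.7 ± 15.3 to 341 ± 30.6 TPM (SD, n = 3). Like IL1A, all 5 had their lowest value in control replicate 3, and so did IL1B. That library also had the lowest median over the tested genes. The 5 genes were picked by these same values, so this is not a trait particular to them. SLC9A3-AS1, a processed transcript by its annotated type, lies within SLC9A3 on the opposite strand, and whether the counting used strand is not given in the sources used here.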

How the data were processed

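RNA of U87 cells was sequenced by the authors on an Illumina NovaSeq, and genes were quantified with RSEM, which divides reads shared between genes. The deposited values are TPM per gene and library. The submitters' processing notes name GRCh38.p13, RSEM, DESeq2 and edgeR; the aligner, annotation and strand setting are not given in the sources used here. All 6 value columns were matched to samples by their labels. Names of members came from the table itself, positions from GENCODE release 29 (58453 of 60671 identifiers held) and promoter windows from RefSeq.

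TPM were analysed as log2(TPM + 1) for genes with at least 1 TPM in at least 3 libraries, by limma 3.58.1 (R 4.3.3; group only, moderated variances with trend, two-sided), with Benjamini-Hochberg adjustment over the whole table. The paper's cutoffs were kept. Ratios within libraries were compared by exact permutation over the 6 libraries. Code was tested on simulated data.

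All 10 members are named; of each list the called genes are named, at most 8 by fold change, with the 5 nearest profiles to IL1B and to IL1A and the genes inside each cluster. The members and lists were chosen with earlier results of these data known.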

Additional observations from a re-analysis of the deposited data

How the results depend on the processing

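IL1A, IL1B and IL1RN were called under all 12 alternatives that keep the fold cutoff (median centring, no trend, no filter, TPM of at least 1 in every library, a pseudocount of 0.1, the replicate block and each library left out), with adjusted p of at most 0.00984, 0.000679 and 0.00976 in limma, and their log2 fold changes stayed within 2.93 to 3.23, 4.99 to 5.14 and 2.25 to 2.39 when a library was left out. CASP1 did not pass under any of them (adjusted p 0.0572 to 0.355, log2 fold change -0.63 to -0.42 with a library left out). The sign of the weakest differences turned: IL1R1 was at 0.11 without control replicate 1, 0.10 without control replicate 2 and 0.15 without rutaecarpine replicate 2, and IL1RAP was at -0.15 without control replicate 3, within ranges of -0.24 to 0.15 and -0.15 to 0.29 with a library left out; neither passed anywhere, and the cause was not tested.

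Over all genes, 505 were called, between 320 (without rutaecarpine replicate 3) and 585 (without control replicate 3) with a library left out, 1335 with no fold cutoff and 318 with the replicate block, of which 315 were shared. Deviations from the group means correlated at 0.116, -0.266 and -0.215 between same-numbered libraries. With so few libraries this cannot exclude that same-numbered ones were handled together, and the labels do not say. The block changed no member's call. Of the IL-1-induced genes it left 10 of 12 called, without NFKBIZ and VCAM1. Median centring gave 251 rises and 295 falls in place of 289 and 216. The receptor signalling count went from 1 to 0 with median centring and between 0 and 1 with a library left out, the count of other family genes to 1 (IL36RN) with TPM of at least 1 in every library, where fewer genes are tested, and the inflammasome count to 1 (AIM2) with no fold cutoff. The IL1B to IL1RN difference stayed between 2.60 and 2.90. TPM keep no depth, so low values such as those of IL18, IL33 and IL1RL1 have no counting limits here.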

Other observations

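Genes known to be induced through the AhR were also read, as a list of 7 drawn up with earlier results of these data known. Of the 5 tested, 3 rose and 0 fell in limma, against 2.01% and 1.50% of all tested genes. All 5 had a Benjamini-Hochberg adjusted p of at most 0.05, as had 1335 of the 14377 genes tested. AHRR and CYP1A1 reached 1 TPM in the rutaecarpine libraries alone, so they could only be tested because they were higher there. CYP1B1, TIPARP and NQO1 did not depend on this. Of these, CYP1B1 and TIPARP rose and NQO1 missed the fold threshold (log2 fold change 0.67). CYP1B1, a cytochrome P450 that oxidizes estrogens and polycyclic hydrocarbons, had TPM of 84.67, 82.42 and 42.8 in the control libraries and 410.6, 335.45 and 422.88 in the rutaecarpine libraries. TIPARP, a mono-ADP-ribosyltransferase that represses the AhR, and AHRR, the AhR repressor, had log2 fold changes of 3.11 and 2.07. CYP1A1 was at 1.14, 1.18 and 1.12 TPM in the rutaecarpine libraries and at most 0.19 TPM in the control libraries, with a log2 fold change of 0.99 that missed the fold threshold on the log2(TPM + 1) scale. The relation of these genes to the IL-1 family was not tested.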
